A study of Mus musculus with 6 samples.

Results

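The genes described here encode enzymes and assembly factors of the peroxisome, and they were followed in livers of mice fed a Western diet with or without squalene. The set was a list of 41 mouse genes chosen by name, taken on the arrays through RefSeq symbols of the probes' accessions, with the brightest probe of each gene. Far1 had no probe that could be named, and the other 40 genes all passed the filter on dim probes, among 20658 features tested in all, of which 13311 had a symbol. The list was not selected by measured values, but earlier results of these data were known when it was chosen.

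Peroxisomes shorten very-long-chain and branched-chain fatty acids, make ether lipid precursors and bile acids, and break down glycolate and urate, producing hydrogen peroxide on the way. Their matrix enzymes are made in the cytosol and brought in by peroxins, the products of the Pex genes. In rodent liver many of these genes are targets of the fatty acid receptor PPARα, and their products become more abundant on fasting and with fibrate drugs.

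The squalene group was male mice lacking Apoe, on the C57BL/6J background, fed a Western diet with 1% squalene for 11 weeks, and the Western group was the same kind of mice on the same diet without squalene. The diet of both groups was purified, with 20% palm oil as its fat and 0.15% added cholesterol. Both groups lack apolipoprotein E, so no animal with normal lipoprotein clearance is in the comparison. Whole-liver RNA of 10 squalene-fed and 9 Western-fed mice was combined into 4 pools per diet, each of 2 or 3 animals, and each array carried 1 squalene pool and 1 Western pool. The 6 two-colour arrays formed 4 pool pairs, which were the replicates. By the labels' pool numbers, pairs 1 to 4 set squalene pools 5, 6, 7 and 8 against Western pools 1, 2, 3 and 4. Squalene was in Cy5 in pairs 1 and 4 and in Cy3 in pairs 2 and 3, and pairs 1 and 2 were each hybridised on 2 arrays. The mice's ages and the pools' animals are not given in the sources used here.

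The scanner software marked 48.67% to 54.16% of an array's spots as well above background, and no spot was saturated. The number of pools limits the precision. All 10 hepatocyte markers were measured, with a log2 of their summed intensity of 19.73 to 20.03 in squalene pools and 19.67 to 20.01 in Western pools. All 6 markers of lipid-associated macrophages were measured, at a log2 summed intensity of 12.38 to 13.12 in squalene pools and 13.05 to 13.39 in Western pools. The 7 measured of 8 red cell markers had a log2 summed intensity of 16.27 to 17.37 in squalene pools and 16.77 to 17.98 in Western pools. The 8 markers of stellate cells and fibroblasts were at 14.54 to 15.09 in squalene pools and 14.91 to 15.13 in Western pools. The 4 measured of 6 neutrophil markers were at 11.02 to 11.97 in squalene pools and 11.35 to 11.86 in Western pools, and the 9 measured of 10 Kupffer cell markers at 15.87 to 16.83 in squalene pools and 16.02 to 16.70 in Western pools. At an unadjusted p of 0.05 in limma's test, 4 markers each of the lipid-associated macrophage, stellate and red cell lists were lower with squalene. By that rule 1.42% of all features were lower, 1 adipocyte marker was lower and 1 lymphocyte marker higher. None passed the adjusted threshold. In pairs 1 to 4 the stellate list had median log2 ratios of 0.10, -0.47, -0.50 and 0.08. The red cell list had 0.13, -0.55, -1.60 and 0.15, and the lipid-associated macrophage list 0.17, -0.61, -0.78 and -0.12. The part of these marker differences in the peroxisomal ratios was not tested. In whole tissue, fewer cells of a type and less RNA per cell cannot be told apart.

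The mean log2 ratio of squalene over Western was close to 0 for most of the 40 measured peroxisomal genes, and none passed the test. Averaged over pairs, 19 genes were above 0 and 21 below, with a median log2 ratio of -0.0031, beside 0.0029 over all features. The means ran from -0.27 for Crot to 0.23 for Decr2, and 32 of 40 lay between -0.1 and 0.1. No gene passed an adjusted p of 0.05 in limma's test with Benjamini-Hochberg adjustment over all features, where 0% of features did. None of the 40 passed an unadjusted p of 0.05 either, while 1.06% of features were higher with squalene and 1.42% lower by that rule. The smallest unadjusted p of the set was 0.059, for Decr2, and its adjusted p was 0.9999.

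**Figure D1:**
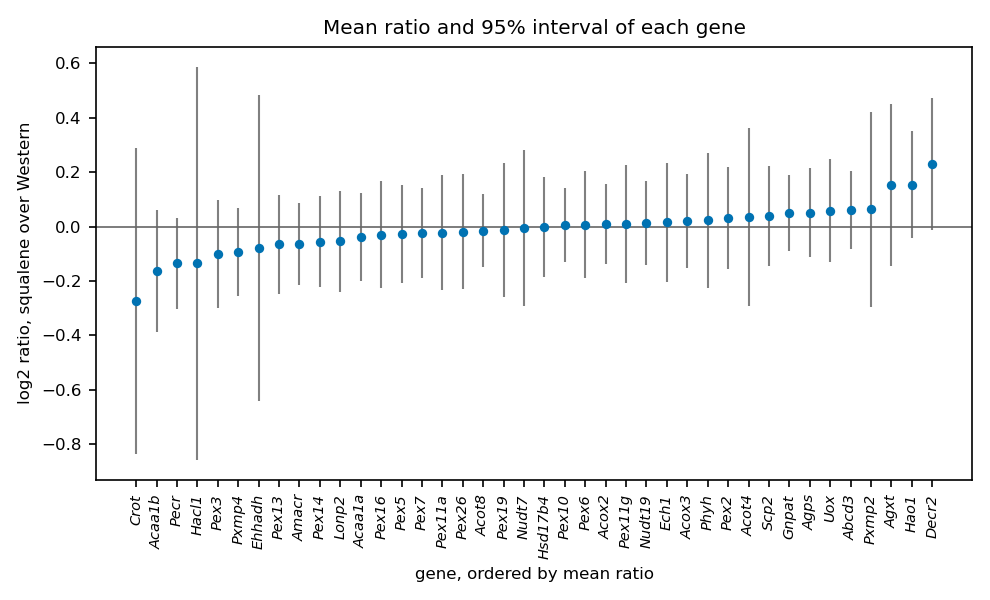
Mean log2 ratio of squalene over Western (vertical axis) for each of the 40 measured peroxisomal genes, ordered from left to right by that mean. Points are means over 4 pool pairs and bars are 95% intervals from limma's fit with a dye intercept; every bar crosses 0, and the widest are those of Hacl1, Ehhadh and Crot.

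The intervals give how large a difference these arrays leave possible. For all 40 genes the 95% interval of limma's fit lay between -1 and 1 on the log2 scale, and for 37 it lay between -0.5 and 0.5. The median half-width was 0.188, the narrowest 0.134 and the widest 0.723. A p that misses the threshold does not show that the diets were alike for a gene. The intervals rest on a fit that takes out the difference between the dye orientations, so some are narrower than the SD over the 4 pairs would give.

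The pairs disagreed about the direction of most genes. Only Gnpat and Pxmp4 kept 1 sign in all 4 pairs, that is 1 gene above 0 and 1 below among 40, against 3.33% and 3.05% of all features. With the scanner software's own processed signals, 0 of the 40 genes kept 1 sign, against 6.4% of all features. The median log2 ratio of the 40 genes was -0.11 in pair 1, 0.038 in pair 2, 0.094 in pair 3 and -0.13 in pair 4. The SD over pairs had a median of 0.212 among the 40 genes and 0.162 among all features, and 29 of the 40 genes exceeded the features' median. Repeat arrays of 1 pair were much closer to each other than pairs were. Across the 40 genes, which are not independent replicates, the repeat arrays correlated at r = 0.925 for pair 1 and r = 0.921 for pair 2, and their ratios differed by a median of 0.051 and 0.06 on the log2 scale.

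**Figure D2:**
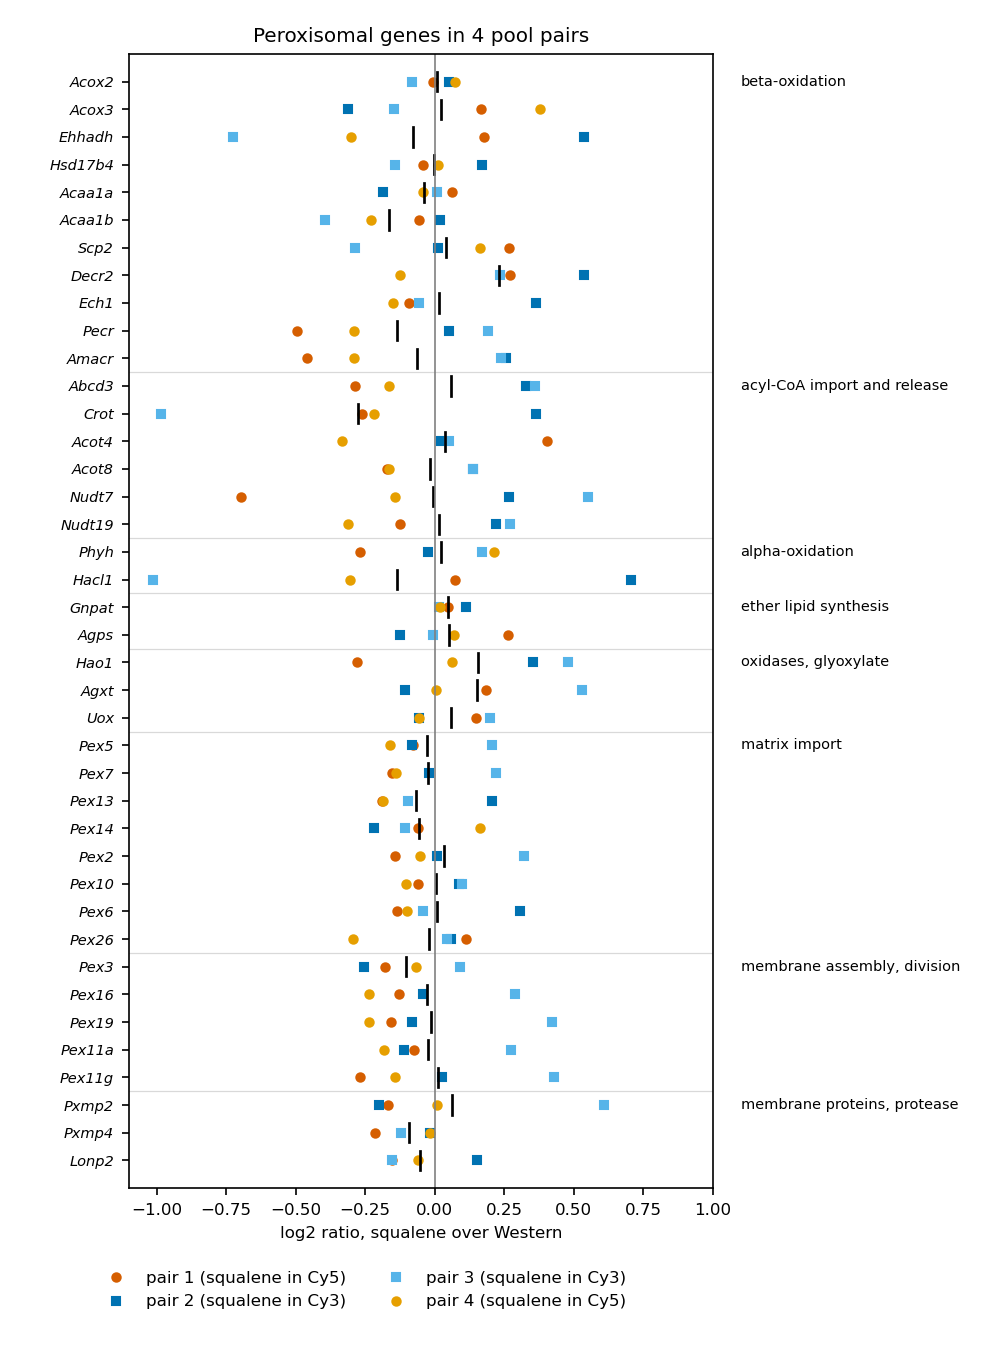
Log2 ratio of squalene over Western (horizontal axis) of the 40 measured peroxisomal genes, grouped by role, in each of the 4 pool pairs. Circles are pairs with squalene in Cy5, squares pairs with squalene in Cy3, and black ticks the means; 38 of the 40 genes have pairs on both sides of 0, and Hacl1, Crot and Ehhadh are the most spread of the genes low in pair 3.

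The enzymes of beta-oxidation, the cycle that shortens acyl-CoAs, were 5 above 0 and 6 below among 11 measured, with a median log2 ratio of -0.00097. Decr2, the peroxisomal 2,4-dienoyl-CoA reductase for unsaturated acyl chains, had the highest mean, with log2 ratios of 0.27, 0.54, 0.24 and -0.13 in pairs 1 to 4. It was above 0 in 3 of the 4 pairs, and pair 4 went the other way. Its log2 intensity averaged 12.60 ± 0.20 in squalene pools and 12.37 ± 0.13 in Western pools (SD, n = 4 each), a log2 ratio of 0.23 with an interval of -0.012 to 0.47, or 1.17-fold.

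Acaa1b, a thiolase for the last step of the cycle, had the lowest mean of the cycle's enzymes, with log2 ratios of -0.06, 0.02, -0.39 and -0.23 in pairs 1 to 4. Its mean log2 ratio was -0.16, with an interval of -0.39 to 0.06. The closely related thiolase gene Acaa1a had a mean of -0.04 ± 0.11 (SD, n = 4), and whether the probes of these similar genes share signal was not tested. Ehhadh, the L-bifunctional enzyme, averaged -0.08 ± 0.55, while Hsd17b4, the D-bifunctional enzyme that also serves bile acid synthesis, averaged -0.00097 ± 0.13 (SD, n = 4 each). These enzymes run the same middle steps, and the spread over pairs was wide for Ehhadh and narrow for Hsd17b4.

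The acyl-CoA oxidases for bile acid intermediates and branched chains both had means close to 0. Acox2 averaged 0.01 ± 0.07 and had 1 of the narrowest spreads of the set, as 90.1% of features had an SD at least as large. Acox3 had log2 ratios of 0.17, -0.31, -0.15 and 0.38 in pairs 1 to 4 with its brighter probe, above 0 in pairs 1 and 4 alone. Its second probe gave -0.10, -0.04, 0.34 and 0.02, of opposite sign in pairs 1 and 3. Scp2, a sterol carrier with thiolase activity, averaged 0.04 ± 0.24 (SD, n = 4). Its second probe gave -0.14, 0.33, 0.21 and -0.19, against 0.27, 0.01, -0.28 and 0.16 for the brighter probe in pairs 1 to 4, opposite in sign in 3 of the pairs.

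Pecr, a trans-2-enoyl-CoA reductase, had log2 ratios of -0.49, 0.05, 0.19 and -0.29 in pairs 1 to 4. Amacr, the racemase that turns branched acyl-CoAs into the form beta-oxidation accepts, had -0.46, 0.26, 0.24 and -0.29. Both were below 0 in pairs 1 and 4 and above 0 in pairs 2 and 3. Ech1, a dienoyl-CoA isomerase, averaged 0.015 ± 0.24 (SD, n = 4), with pair 2 at 0.36 and the other pairs below 0.

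Genes for moving acyl groups across the membrane and releasing them from coenzyme A were 3 above 0 and 3 below among 6. Abcd3, the membrane transporter for acyl-CoAs, had the highest mean, with log2 ratios of -0.29, 0.33, 0.36 and -0.17 in pairs 1 to 4. Nudt7, which hydrolyses coenzyme A, had -0.70, 0.27, 0.55 and -0.14, and Nudt19, another coenzyme A hydrolase, averaged 0.014 ± 0.28 (SD, n = 4). The thioesterase Acot8 had -0.17, 0.14, 0.14 and -0.17. By their brightest probes, all 4 of these genes were negative in pairs 1 and 4 and positive in pairs 2 and 3, so their means lay near 0. A second probe of Nudt7 gave -0.65, 0.29, 0.42 and 0.14 in pairs 1 to 4, positive in pair 4. Acot4, a thioesterase with close paralogs, averaged 0.036 ± 0.30 (SD, n = 4).

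Crot, Hacl1 and Ehhadh had the widest spread over pairs of the 40 genes, with the same pairs at the ends. Crot, the carnitine octanoyltransferase that hands medium-chain products on to mitochondria, had log2 ratios of -0.26, 0.37, -0.98 and -0.22 in pairs 1 to 4. Hacl1, the lyase of the alpha-oxidation of phytanic acid and other 3-methyl-branched chains, had 0.07, 0.71, -1.01 and -0.31. Ehhadh had 0.18, 0.54, -0.73 and -0.30. In all of them pair 2 was highest and pair 3 lowest. The 3 genes were grouped here after their values were seen, so their likeness is a description.

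Their spread was among the widest of the arrays, since 3.42% of features had an SD at least as large as Crot, 3.44% as large as Ehhadh and 1.31% as large as Hacl1. With Nudt7, 4 of the 40 genes had an SD of 0.5 or more, against 4.44% of all features.

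The levels of the single pools were also read, each pool in 1 dye only, so pool and dye cannot be told apart in them. Crot had a log2 intensity of 13.75, 13.51, 13.03 and 13.65 in squalene pools 5 to 8, against 14.01, 13.14, 14.01 and 13.87 in Western pools 1 to 4. Hacl1 had 13.55, 13.61, 12.80 and 13.55 in squalene pools, against 13.48, 12.90, 13.81 and 13.86 in Western pools. Ehhadh had 12.57, 12.43, 11.97 and 12.29 in squalene pools, against 12.39, 11.89, 12.70 and 12.59 in Western pools. Squalene pool 7 and Western pool 2 were the lowest of their diet for all 3 genes, and the diets overlapped for each. Squalene pool 7 was read in Cy3 and Western pool 2 in Cy5.

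Leaving out pair 2 and leaving out pair 3 moved these genes in opposite directions. Both pairs had squalene in Cy3, so the fit fixes this for genes highest in pair 2 and lowest in pair 3. The genes were named for that order, so no conclusion is drawn from it. Without pair 2 the log2 ratio was -0.61 for Crot, -0.56 for Hacl1 and -0.39 for Ehhadh. Without pair 3 the log2 ratio was 0.29 for Hacl1, 0.24 for Ehhadh and 0.063 for Crot, all above 0. Each of these fits kept only 1 pair with squalene in Cy3, so the sizes alone are given.

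Promoter windows of these 3 genes are shown because their levels moved together over the pools. They come from RefSeq on build GRCm38.p6, run 5′ to 3′ on the gene's strand over 250 bases before and 50 after the annotated start, and carry the motif CCAAT in capitals, which reads ATTGG where it lies on the other strand.
Ehhadh (chr16:21787785-21788084, minus strand): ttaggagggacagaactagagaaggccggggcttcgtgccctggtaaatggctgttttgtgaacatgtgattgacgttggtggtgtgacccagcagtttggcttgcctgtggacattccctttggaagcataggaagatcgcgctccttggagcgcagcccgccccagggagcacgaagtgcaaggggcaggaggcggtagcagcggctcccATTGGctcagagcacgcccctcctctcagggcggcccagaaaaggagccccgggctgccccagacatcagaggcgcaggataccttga
Crot (chr5:8997097-8997396, minus strand): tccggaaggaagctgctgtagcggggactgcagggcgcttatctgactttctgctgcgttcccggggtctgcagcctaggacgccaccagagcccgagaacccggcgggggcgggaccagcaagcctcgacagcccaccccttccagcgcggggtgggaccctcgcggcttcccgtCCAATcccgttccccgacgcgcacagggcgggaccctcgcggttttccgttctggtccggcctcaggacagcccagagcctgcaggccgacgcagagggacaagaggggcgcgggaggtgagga
Hacl1 (chr14:31640916-31641215, minus strand): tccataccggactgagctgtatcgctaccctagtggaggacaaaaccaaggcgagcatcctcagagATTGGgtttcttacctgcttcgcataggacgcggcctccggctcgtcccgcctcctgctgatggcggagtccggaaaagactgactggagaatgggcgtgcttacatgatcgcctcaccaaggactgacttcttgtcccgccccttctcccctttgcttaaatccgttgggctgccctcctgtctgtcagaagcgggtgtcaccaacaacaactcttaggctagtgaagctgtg

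Each of the 3 windows held CCAAT once, counting both strands. At least 1 copy was in 37.4% of the 32851 windows in the table. Among the 43 windows of peroxisomal genes it was in 16, a share near that of all windows. The 3 genes were picked by their values, so their matches are a description. The motif AGGTCANAGGTCA, AGGTCA repeated after 1 base as in the classical response element of PPARα, was searched on both strands and was in none of the 43 windows of the 36 peroxisomal genes that the table holds. It was in 0.0396% of all windows. No match says only that these letters are absent from these short windows, and the motifs do not overlap each other.

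**Figure D3:**
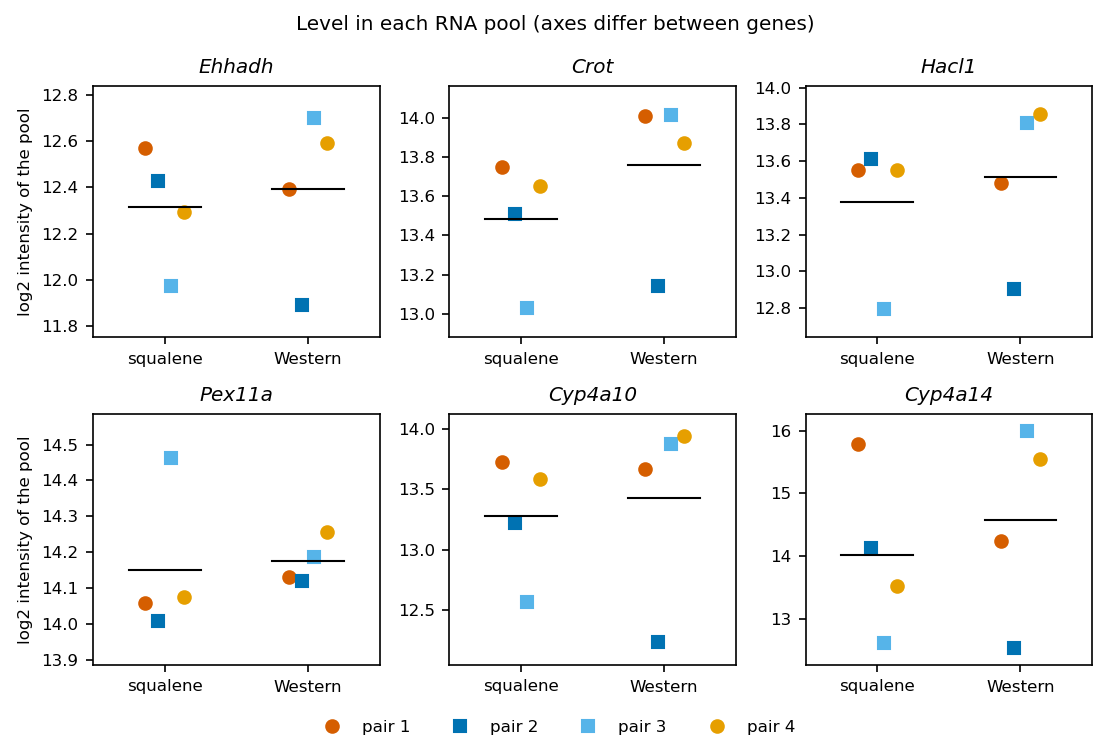
Log2 intensity (vertical axes, different for each gene) of Ehhadh, Crot, Hacl1 and Pex11a and of the PPARα targets Cyp4a10 and Cyp4a14 in the 4 squalene pools (left) and the 4 Western pools (right). Colours mark the pool pair and black lines the means; squalene pool 7 and Western pool 2 are lowest within their diet in every panel but that of Pex11a.

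A list of 36 genes held PPARα targets outside the peroxisome, together with Ppara itself, Rxra and Ppargc1a. Of these 36 genes, 15 were lowest in pair 3, beside 9 of the 40 peroxisomal genes and 29.1% of all features. Other targets of that list were above 0 there, among them Cpt1a, the mitochondrial carnitine palmitoyltransferase, at 0.33, Acadm at 0.21 and Slc22a5 at 0.42 in pair 3. Cyp4a14, a fatty acid omega-hydroxylase and the lowest but 1 of that list by its mean log2 ratio of -0.56, had 1.55, 1.59, -3.37 and -2.02 in pairs 1 to 4. Named after their values were seen, as was Cpt1a, Cyp4a10 had 0.06, 0.99, -1.30 and -0.35, Fgf21, a fasting hormone, had 1.68, 0.57, -2.98 and -0.67, and Acot1, a cytosolic thioesterase, had 0.28, 0.30, -0.47 and -0.20. Pair 3 was lowest for each of them. Cyp4a10 had a log2 intensity of 13.73, 13.22, 12.57 and 13.58 in squalene pools 5 to 8, against 13.66, 12.23, 13.87 and 13.94 in Western pools, the same low pools as Crot, Hacl1 and Ehhadh. Whether probes of the similar Cyp4a genes share signal was not tested.

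All 36 genes of that list were measured, with 10 above 0 on average and 26 below and a median log2 ratio of -0.051. At an unadjusted p of 0.05, 0 were higher and 2 lower, and none passed the adjusted threshold. Pdk4, the kinase that shuts off pyruvate dehydrogenase, averaged -0.57 with 0.33, -0.85, -1.79 and 0.03 in pairs 1 to 4 (limma, unadjusted p = 0.017, adjusted p = 0.9999). Txnip, a thioredoxin-binding protein that restrains glucose uptake, averaged -0.31 with 0.03, -0.92, -0.64 and 0.29 (limma, unadjusted p = 0.011, adjusted p = 0.9999). Both were below 0 in pairs 2 and 3 alone, the pairs with squalene in Cy3. Next by unadjusted p came Fabp3, a fatty acid binding protein, at -0.13 ± 0.24, and Cidea, a lipid droplet protein, at -0.09 ± 0.07 and below 0 in all 4 pairs (SD, n = 4 each). The probes of Fabp3 and Cidea were dim, with mean log2 intensities of 6.61 and 6.46 in squalene pools, which limits such small ratios. The highest means of the list were 0.11 for Acadm, the mitochondrial medium-chain dehydrogenase, and 0.092 for Slc22a5, the carnitine transporter. Ppara, the receptor itself, had log2 ratios of -0.17, -0.32, 0.33 and -0.05 in pairs 1 to 4, an order unlike that of Crot and Hacl1.

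The other gene of alpha-oxidation, Phyh, the hydroxylase that starts the breakdown of phytanic acid, had log2 ratios of -0.27, -0.02, 0.17 and 0.21 in pairs 1 to 4. Its mean was 0.02, with an interval of -0.23 to 0.27. Phyh and Hacl1 act in 1 pathway, yet Phyh was above 0 in pair 3, where Hacl1 was at -1.01.

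Both measured genes of ether lipid synthesis averaged slightly above 0. Gnpat, the acyltransferase of its first step, had log2 ratios of 0.05, 0.11, 0.02 and 0.02 in pairs 1 to 4, with a mean of 0.05 and an interval of -0.091 to 0.19. Its log2 intensity averaged 11.01 ± 0.05 over squalene pools and 10.96 ± 0.05 in Western pools (SD, n = 4 each), so the diets overlapped over pools although each pair was above 0. Gnpat had 1 of the narrowest spreads on the arrays, as 97.1% of features had an SD at least as large. Agps, which puts the ether bond in place, had 0.27, -0.12, -0.01 and 0.07 in pairs 1 to 4.

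The oxidases and the glyoxylate enzyme were all 3 above 0 on average, with a median log2 ratio of 0.15 and none past the test. Hao1, glycolate oxidase, had log2 ratios of -0.28, 0.35, 0.48 and 0.06 in pairs 1 to 4, with a mean of 0.15 and an interval of -0.044 to 0.35. Agxt, which turns glyoxylate into glycine, had 0.19, -0.11, 0.53 and 0.004, with a mean of 0.15. For Agxt the high value of pair 3 went with a low Western pool, since its log2 intensity was 14.07, 14.00, 14.03 and 14.28 in squalene pools 5 to 8, against 13.88, 14.11, 13.50 and 14.28 in Western pools.

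Uox, urate oxidase, had log2 ratios of 0.15, -0.05, 0.20 and -0.06 in pairs 1 to 4 with its brightest probe. The second probe gave -0.12, 0.42, 0.61 and -0.43, of opposite sign in pairs 1 and 2. In all, 8 of the 40 genes had more than 1 probe past the filter, and for 6 of these the probes had means of the same sign.

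The peroxins that bring enzymes into the matrix were 3 above 0 and 5 below among 8, all with means between -0.1 and 0.1. Pex2, a ring finger ubiquitin ligase of the import machinery, had the highest mean, with log2 ratios of -0.14, 0.007, 0.32 and -0.05 in pairs 1 to 4. Pex13, part of the docking complex, had the lowest, with -0.19, 0.21, -0.09 and -0.19. The import receptors Pex5 and Pex7 averaged -0.03 ± 0.16 and -0.02 ± 0.17 (SD, n = 4 each), and for both of them pair 3 was the only one above 0. Pex14, the docking partner of Pex13, averaged -0.05 ± 0.16, and Pex10, a ligase that works with Pex2, 0.006 ± 0.10 (SD, n = 4 each). Pex6, an ATPase that recycles the receptor, averaged 0.008 ± 0.20, and Pex26, its membrane anchor, -0.02 ± 0.18 (SD, n = 4 each).

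Genes for building and dividing the membrane were 1 above 0 and 4 below among 5. Pex11g, a division factor, had the highest mean, with log2 ratios of -0.27, 0.02, 0.43 and -0.14 in pairs 1 to 4. Pex3, the membrane dock for Pex19, had the lowest, with -0.18, -0.25, 0.09 and -0.07 and an interval of its mean of -0.30 to 0.096. All 5 genes were above 0 in pair 3, where the list's median was 0.29, and below 0 in pairs 1 and 4. Pex16, which recruits Pex3, averaged -0.03 ± 0.23, Pex19, the chaperone of membrane proteins, -0.01 ± 0.30, and Pex11a -0.02 ± 0.20 (SD, n = 4 each).

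Pex11a, the division factor that PPARα agonists raise in rodents, did not share the order of Crot, Hacl1 and Ehhadh. It had log2 ratios of -0.07, -0.11, 0.28 and -0.18 in pairs 1 to 4. Its log2 intensity was 14.06, 14.01, 14.46 and 14.08 in squalene pools, against 14.13, 14.12, 14.19 and 14.26 in Western pools. Squalene pool 7, the lowest pool of its diet for Crot, Hacl1 and Ehhadh, was the highest of all pools for Pex11a.

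Of the membrane proteins and the protease, 1 was above 0 and 2 were below. Pxmp4, a peroxisomal membrane protein, was below 0 in all 4 pairs, with log2 ratios of -0.21, -0.02, -0.12 and -0.02. Its mean was -0.09, with an interval of -0.25 to 0.069 (limma, unadjusted p = 0.20), and its log2 intensity averaged 11.72 ± 0.14 over squalene pools and 11.81 ± 0.11 in Western pools (SD, n = 4 each). The pools of the diets overlapped. Pxmp2, a channel-forming membrane protein, had -0.17, -0.20, 0.61 and 0.01, and Lonp2, the matrix Lon protease, averaged -0.05 ± 0.14 (SD, n = 4).

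The ratios were also set apart by dye orientation. The mean of pairs 1 and 4 and the mean of pairs 2 and 3 had opposite signs for 28 of the 40 genes, a share near the 67.8% of all features. Of the 40 genes, 30 were lower in pairs 1 and 4 than in pairs 2 and 3, against 47.1% of all features. The median log2 ratio of the 40 genes was -0.11 over pairs 1 and 4 and 0.073 over pairs 2 and 3, while for all features these medians were 0.009 and -0.008. In 9 genes, both of pairs 1 and 4 were below 0 and both of pairs 2 and 3 above it, against 12.6% of all features. The reverse held for 2 genes, against 15.1% of all features. Each orientation held its own pools, so dye and pool cannot be told apart.

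**Figure D4:**
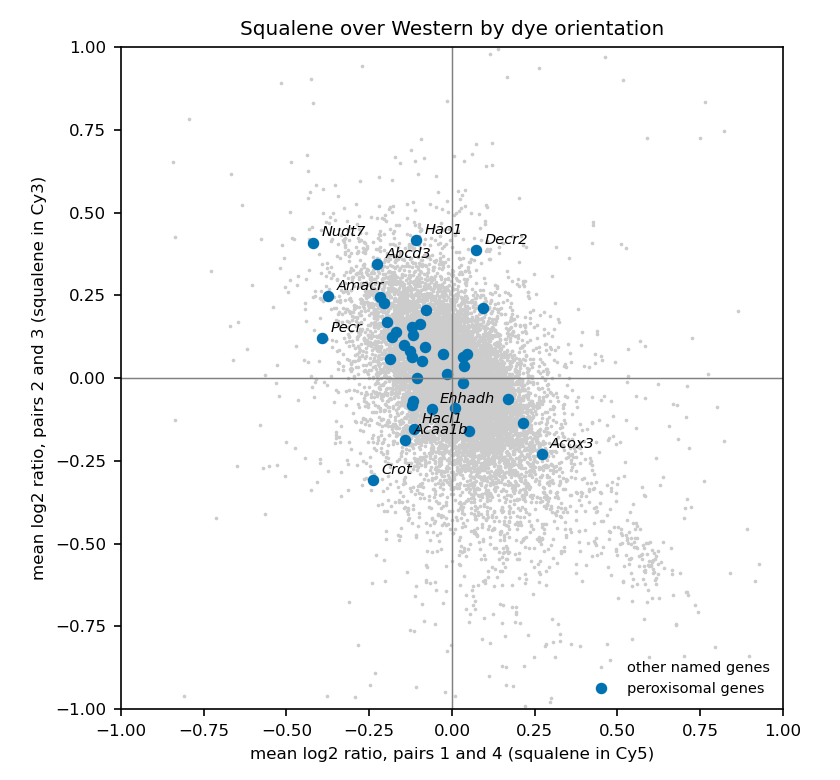
Mean log2 ratio of squalene over Western in pairs 1 and 4, with squalene in Cy5 (horizontal axis), against that in pairs 2 and 3, with squalene in Cy3 (vertical axis). Blue points are the 40 peroxisomal genes and grey points other named genes, of which 44 lie outside the axes; 28 of the 40 blue points are at the upper left or lower right, where the orientations have opposite signs.

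Over all features, the 4 pairings of pairs of different orientation had r of -0.43 (pairs 1 and 3), -0.41 (pairs 2 and 4), -0.13 (pairs 1 and 2) and -0.023 (pairs 3 and 4). Within an orientation, r was 0.077 between pairs 1 and 4 and 0.16 between pairs 2 and 3. Over the 40 genes r was -0.39 between pairs 2 and 3, the pairs in which Crot, Hacl1 and Ehhadh lay at opposite ends, and 0.18 between pairs 1 and 4. These are correlations across genes, which are not independent replicates. The dyes of each sample are those of the labels.

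A further list of 50 genes of the peroxisome, chosen by function, was described in the same way. The 44 that were tested had 22 means above 0 and 22 below, a median log2 ratio of 3.4e-05, and none past an unadjusted p of 0.05. Gstk1, a peroxisomal glutathione transferase, had the lowest mean and the smallest p, at -0.20 ± 0.18 (limma, unadjusted p = 0.063), and Ephx2, an epoxide hydrolase, followed at -0.13 ± 0.19. Ddo, which oxidises D-aspartate, averaged 0.11 ± 0.16 and Abcd2, a transporter of very-long-chain acyl-CoAs, 0.11 ± 0.21. Idi1, an isoprenoid enzyme found in peroxisomes, had the highest mean, 0.14 ± 0.39 (SD, n = 4 each), with 0.18, 0.67, -0.21 and -0.09 in pairs 1 to 4.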

How the data were processed

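The deposited scanner output held spot and background intensity in both channels per the file headers (the scanner software was Agilent Feature Extraction 10.7.3.1), with log10 ratios of red over green and marks for control, outlier and background-level spots. A value table, also deposited by the authors, held log10 ratios. Each column of pair 1 also held 2 cells too large for a log ratio, so its deposited unit is recorded as a score; these cells were left out and the rest used as log10 ratios. The table was turned to squalene over Western by the dye labels, as its deposited ratios were red over green. After turning it equalled log10 ratios of unnormalised median signals to 0.001 in 99.93% to 99.94% of spots per array. That match settled its scale, centring and direction. Its processing steps are not given in the sources. As squalene over Western, its column medians were 0.254 and 0.27 for pair 1, -0.217 and -0.257 for pair 2, -0.27 for pair 3 and 0.259 for pair 4.

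Median signals were corrected with normexp (offset 50) and loess in limma 3.58.1 (R 4.3.3), with controls at weight 0 and outlier spots left out. The planned correction named mean signals, which the files do not hold. Replicate spots were averaged per probe, then repeat arrays per pair. The filter asked for signal well above background in 3 or more of the 4 pairs, in the channel of either diet, and left 26854 of 55681 probes. RefSeq symbols (GRCm38.p6) named 26762 probes, and the brightest probe stood for a gene. The limma model (lmFit, eBayes) had terms for squalene and for dye orientation, and p-values of all 20658 features were adjusted by the Benjamini-Hochberg method. Pool levels are log2 intensities per channel after Aquantile and are compared within a probe only.

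The members and lists were chosen with earlier results of these data known. All members were to be named by role, with pair values for those of 1 sign in all pairs or past an unadjusted p of 0.05 and for the highest and lowest mean of each role; of 2 further lists, up to 4 genes by smallest p, the 2 largest means each way and Ppara. Pair values of other genes were added after they were seen. Nothing in the labels says that animals were matched between the pools of a pair. The fit was also run on simulated data, with changes larger than the mean of any member. That run does not bear on changes as small as those of the members.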

Additional observations from a re-analysis of the deposited data

Results flagged for a closer look

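The log2 ratio of Pex26, the membrane anchor of the receptor-recycling ATPase complex, was -0.292 in pair 4, while the other 3 pairs lay between 0.045 and 0.11. The gap made up 0.832 of the range of the 4 values, above the 95% critical value of Dixon's test for 4 values. Among the 40 genes tested this way 1 stood out, where chance gives about 5%. A dimmer second probe of Pex26 gave -0.08 in pair 4 and -0.05, -0.08 and 0.21 in pairs 1, 2 and 3.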

How the results depend on the processing

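The 18 planned settings were run one by one; the deposited table replaces background correction and normalisation together, and the slide setting adds a term and a random block. The median log2 ratio of the 40 genes ran from -0.011 to 0.018, within the SD of 0.111 between the pairs' medians, and was -0.028 on slide 1 alone (pairs 1 and 2), a setting chosen after the data were seen. Of 720 values of single genes none moved by 1 SD or more, 68 had another sign, 10 genes kept their sign throughout, and 29 changed sign when 1 pair was left out. Leaving out 1 pair cannot move a mean of this fit by 1 SD over the pairs. Settings such as no dye intercept leave the mean as it was. No conclusion is therefore drawn from the absence of larger moves. Against 0 features past an adjusted p of 0.05, median centring instead of loess gave 2, no within-array normalisation 11, slide as a term with the pair as a random block 3 and the deposited table, median centred, 8; none was one of the 40 genes. Leaving out 1 pair gave 0 each time. Against 0 of the 40 genes past an unadjusted p of 0.05, no probe filter and the slide term each gave 1, Decr2. Leaving out 1 pair gave 1 to 6, the highest without pair 2 (2 higher, 4 lower; 6.31% of features) and the lowest without pair 1. Against 2 genes with 1 sign in all pairs (6.38% of features), Agilent's processed signals (6.4%), no within-array normalisation (0.489%) and the deposited table (2.22%) gave 0. Median centring gave 1 (2.96% of features), and slide 1 for pairs 1 and 2 gave 3 (6.75%). With 3 pairs the count was 3 to 9, where 16.9% to 18.2% of features had 1 sign. The cause of these changes was not tested. The fit on within-array ratios already pairs the pools of an array, so no further replicate block was fitted. Signal over background limits dim probes such as those of Pex10, Abcd2, Fabp3 and Cidea.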
